A study of Homo sapiens with 17 samples.

Results

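The genes described here are 37 genes of glycolysis and of the cellular response to low oxygen, taken by name from the 57638 annotated genes of the series. They comprise 17 glycolytic enzymes, 7 sugar and lactate transporters and regulators of glucose use, 12 known targets of the hypoxia response, and HIF1A, the oxygen-regulated factor itself. They were measured in 17 3′ tag RNA libraries of K562, a human line derived from chronic myeloid leukaemia, into which CRISPR plasmids were electroporated. Most plasmid labels name a human gene to be activated; Neg, GFP, RFP and E7 do not. An antisense oligonucleotide followed, and RNA was taken on day 6. All groups share electroporation, oligonucleotide and day, including the libraries that served as references. Neither the oligonucleotide, nor the guides, nor the share of cells that took up a plasmid is named in the labels.

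The libraries fell into 3 classes by how the plasmid label was written. A number stood before the gene in 4 labels (20-ARSF, 21-CTPS2, 22-LAPTM4B and 23-GOLGA8N), 1 library was labelled E7, and 12 libraries had other labels with no number in front (Neg, GFP, RFP, TTR, TRPC5OS, ADORA2A, UBE2V1, COL6A6, LAPTM4B 1, LAPTM4B 2, GOLGA8N 1 and GOLGA8N 2). They are called prefixed, E7 and unprefixed below. The meaning of the prefix, of E7 and of Neg is not in the labels. Neither do they call the libraries separate cultures, so the spread behind each p-value is the one between these libraries and may be technical. Whatever else distinguished the 4 prefixed libraries cannot be told apart from the prefix.

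Glycolysis splits glucose into pyruvate in the cytosol, and lactate dehydrogenase turns the pyruvate into lactate when respiration does not use it. In low oxygen the prolyl hydroxylases that mark the HIF alpha subunits for destruction lose activity, and the stabilised factor raises transcription of glucose transporters, most glycolytic enzymes and a set of other targets. HIF1A is controlled mainly through its protein, so its transcript is not a measure of its activity.

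Estimated reads per library ranged from 569057 in GFP, and 2252097 in the next lowest, 23-GOLGA8N, to 4236396 in 20-ARSF, with a median of 3222049. Levels are given as CPM, estimated reads of a gene scaled to the reads in annotated genes (counts per 1e6). They are not divided by transcript length, so levels are compared between libraries and not between genes. A floor of 3 reads corresponds to 5.45 CPM in GFP. Of the 9 targeted genes, 2 (TTR and UBE2V1) were higher in the library labelled for them than in every other library. GOLGA8N had 2 estimated reads in all libraries together, and LAPTM4B was at 166 to 222 CPM in the libraries labelled for it, within the 156 to 306 CPM of the others. The arms below are therefore arms by label. All 11 K562 markers were detected, with a summed level of 5015 CPM in E7, 5899 to 8715 CPM in the prefixed and 5982 to 9524 CPM in the unprefixed libraries. The labels call the cells lymphoblasts; the lymphoid markers MS4A1, CD3E and CD2 had no reads in any library.

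Of the 37 genes, 36 had reads. MXI1, a MYC antagonist, was at 0 in 17 libraries and was not tested. Whether this reflects its expression or how its reads were assigned was not examined. ADM, which encodes the vasodilator peptide adrenomedullin, had at most 7 estimated reads in a library (3.22 CPM in 23-GOLGA8N and 1.71 CPM in 20-ARSF). The 250 bases before an annotated start of transcription, which need not be the first of the gene, were available for 32 of the genes. They came in 62 windows from RefSeq (GRCh38.p14). The core of the hypoxia response element, ACGTG or GCGTG on either strand, was found in 37 of these windows, 59.7%, against 43.2% of 35116 windows in the table. The windows of these genes had a median GC content of 68.4%, against 58% for the whole table. A CACGTG, the E-box that other factors also bind, holds ACGTG on both strands and counts as 2 matches. Of the 7 genes called in the main comparison below, 5 had a window, and these are shown 5′ to 3′ on the strand of the gene with each match in capitals.
GAPDH, chr12:6535014-6535263, plus strand: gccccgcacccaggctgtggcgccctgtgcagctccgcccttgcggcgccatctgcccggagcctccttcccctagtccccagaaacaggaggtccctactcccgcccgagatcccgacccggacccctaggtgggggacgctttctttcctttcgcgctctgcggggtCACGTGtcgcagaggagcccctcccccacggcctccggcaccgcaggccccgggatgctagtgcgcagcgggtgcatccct
PGK1, chrX:78103998-78104247, plus strand: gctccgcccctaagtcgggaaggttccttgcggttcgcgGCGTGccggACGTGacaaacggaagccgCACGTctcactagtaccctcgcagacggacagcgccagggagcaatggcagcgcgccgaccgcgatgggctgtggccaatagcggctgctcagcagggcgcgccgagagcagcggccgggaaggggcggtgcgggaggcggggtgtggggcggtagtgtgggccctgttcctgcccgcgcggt
LDHA, chr11:18394313-18394562, plus strand: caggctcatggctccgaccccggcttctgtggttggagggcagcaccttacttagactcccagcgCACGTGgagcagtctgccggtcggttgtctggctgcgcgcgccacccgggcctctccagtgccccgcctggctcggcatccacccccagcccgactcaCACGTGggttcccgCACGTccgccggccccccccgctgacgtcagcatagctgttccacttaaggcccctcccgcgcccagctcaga
SLC2A1, chr1:42958869-42959118, minus strand: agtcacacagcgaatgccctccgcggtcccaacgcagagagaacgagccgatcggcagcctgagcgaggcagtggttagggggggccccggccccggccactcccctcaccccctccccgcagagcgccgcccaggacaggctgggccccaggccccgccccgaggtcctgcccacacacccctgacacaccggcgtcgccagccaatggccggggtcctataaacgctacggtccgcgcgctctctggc
PKM, chr15:72231191-72231440, minus strand: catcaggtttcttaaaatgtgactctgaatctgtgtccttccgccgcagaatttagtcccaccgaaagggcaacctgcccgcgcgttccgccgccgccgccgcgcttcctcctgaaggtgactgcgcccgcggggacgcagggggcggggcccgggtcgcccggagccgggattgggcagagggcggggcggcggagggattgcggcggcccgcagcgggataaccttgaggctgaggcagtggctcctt

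LDHA had 5 matches in the window shown, which include 2 CACGTG, and 1 match in a further window. PGK1 had 3 matches, and GAPDH had 2, both in 1 CACGTG. The GAPDH window starts at base 6535014, inside the annotated gene (chr12:6533927-6538374), so it does not precede the gene's first base. The windows of PGK1, SLC2A1 and PKM also lie inside the annotated genes, and that of LDHA spans the first base of its gene. SLC2A1 and PKM had 0 matches in these bases. A match is a string of letters and not a measured binding site. BNIP3, a mitophagy receptor, and HK2, an inducible hexokinase, had 6 matches each in the window with the most.

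The main comparison set the 4 prefixed against the 12 unprefixed libraries. 7 of the genes were called, all higher in the prefixed libraries: the enzymes GAPDH, PGK1, PKM and LDHA, the glucose transporter SLC2A1, and the hypoxia targets NDRG1 and BNIP3L. Their log2 fold changes ran from 0.51 for PKM to 1.90 for NDRG1. Among the 36 genes tested, 33 had a positive and 3 a negative log2 fold change, with a median of 0.54, against a median of -0.07 over all 16863 genes tested. The background share of genes called was 0.611% in either direction and 0.498% higher. The 36 genes were listed with earlier results of these data known, so these values do not test the list as a whole. At an unadjusted p under 0.05 there were 20 of the 36, of which 18 were higher, beside 1970 of all 16863 genes tested, of which 747 were higher. Bulk RNA does not separate more cells in a state from more RNA per cell. GAPDH was the only gene of the 7 that was called in all 13 alternatives. Without 22-LAPTM4B, and likewise without 23-GOLGA8N, GAPDH alone of these genes was called, beside 46 of all 16502 and 56 of all 16790 genes tested. Without 21-CTPS2 there were 4 called, beside 72 of all 16827, and without 20-ARSF 11, beside 127 of all 16507.

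**Figure D1:**
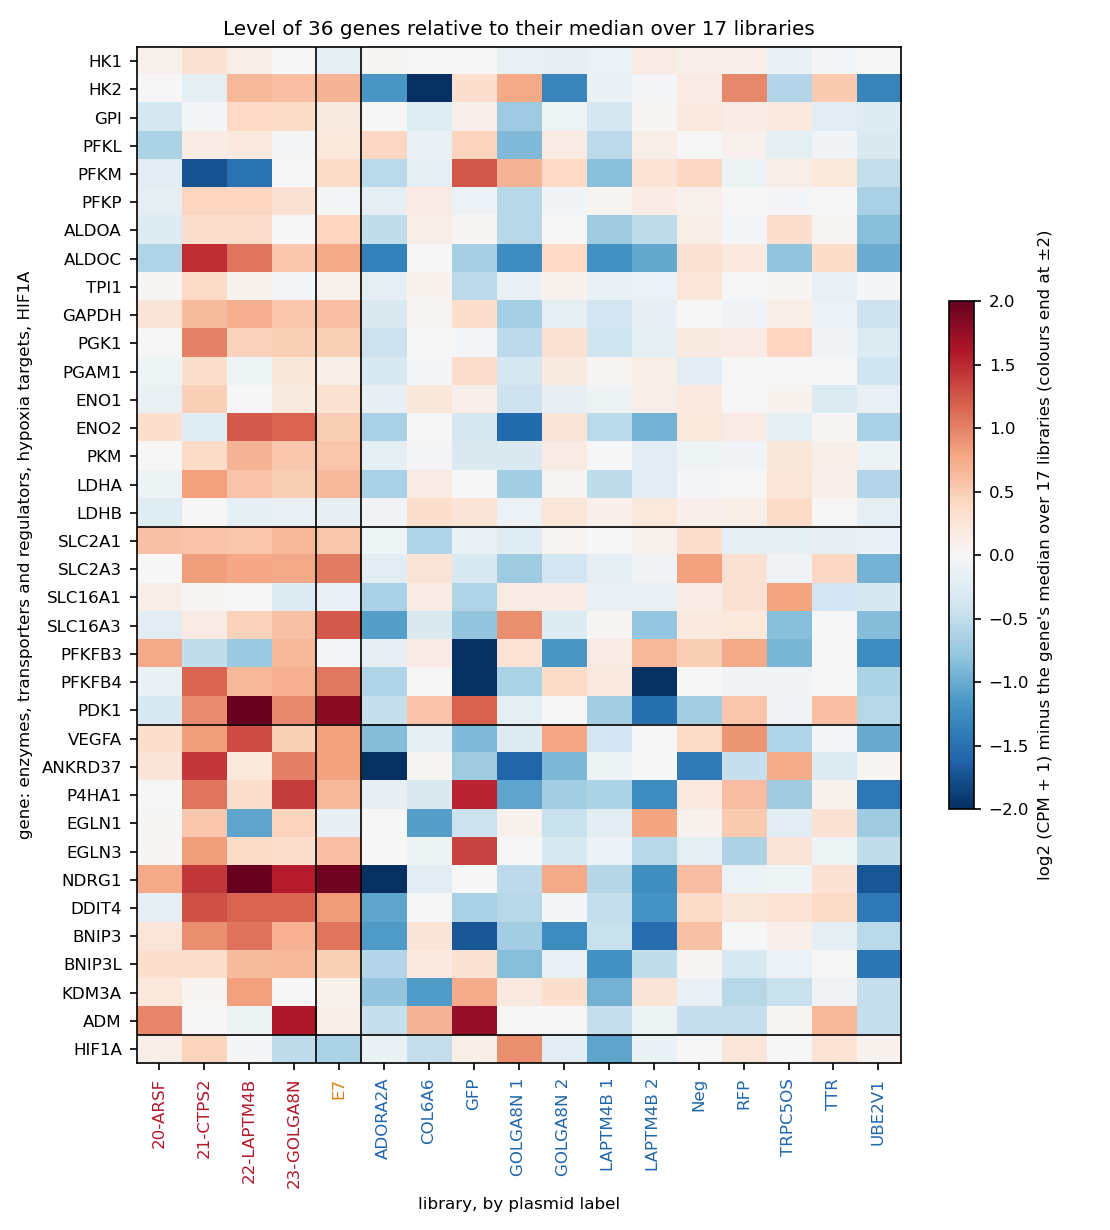
Level of 36 genes (rows, grouped by role) in each library (columns, by plasmid label; label colours mark the 4 prefixed libraries, E7 and the 12 unprefixed), as log2 (CPM + 1) minus the gene's median over the 17 libraries. Libraries 21-CTPS2, 22-LAPTM4B, 23-GOLGA8N and E7 were above the median for 27 to 29 genes, UBE2V1 for 2 and ADORA2A for 3.

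Among the enzymes, 4 of 17 were called, 15 had positive log2 fold changes, and the median was 0.33. GAPDH (ENSG00000111640), which oxidises glyceraldehyde 3-phosphate, was at 1292 CPM in 20-ARSF, 1694 in 21-CTPS2, 1807 in 22-LAPTM4B and 1579 in 23-GOLGA8N. In the unprefixed libraries its lowest, median and highest levels were 687, 983 and 1385 CPM. The 3 prefixed libraries other than 20-ARSF stood above every unprefixed library, and 20-ARSF was below GFP, the unprefixed library with the highest level. The log2 fold change was 0.72 ± 0.11 (SE), with an edgeR adjusted p of 2.9e-05.

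PGK1 (ENSG00000102144), which makes the first ATP of the pathway, was at 266 CPM in 20-ARSF, 532 in 21-CTPS2, 369 in 22-LAPTM4B and 369 in 23-GOLGA8N. Its unprefixed levels were 184 at the lowest, 256 at the median and 357 at the highest. The groups overlapped through 20-ARSF alone, and the log2 fold change was 0.60 ± 0.14 (SE, edgeR adjusted p = 0.0162). PKM (ENSG00000067225), a pyruvate kinase gene whose splice forms were summed, was at 545, 703, 868 and 789 CPM in the same order of libraries. Against 442, 515 and 629 CPM as the lowest, median and highest unprefixed levels, again 20-ARSF alone lay within the unprefixed range. Its log2 fold change was 0.51 ± 0.12 (SE, edgeR adjusted p = 0.0145).

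The last step to lactate gave opposite signs for the 2 subunits of lactate dehydrogenase. LDHA (ENSG00000134333), the subunit favoured in lactate production, was at 710 CPM in 20-ARSF, 1348 in 21-CTPS2, 1129 in 22-LAPTM4B and 1064 in 23-GOLGA8N, against 474, 753 and 902 CPM as the lowest, median and highest unprefixed levels. In 20-ARSF it lay below the unprefixed median. The log2 fold change was 0.65 ± 0.15 (SE, edgeR adjusted p = 0.029), and the call was lost in 6 of 13 alternatives. LDHB, the subunit abundant in oxidative tissue, was at 394, 468, 412 and 421 CPM in the same order, and its unprefixed levels were 410, 504 and 609 CPM at the lowest, median and highest. All 4 prefixed libraries were below the unprefixed median, and the log2 fold change was -0.24 ± 0.11 (SE, edgeR adjusted p = 0.423), which did not pass the test. The difference between the subunits was not tested.

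The other 13 enzymes were not called. The largest log2 fold changes among them were 1.19 for ALDOC, an aldolase of nervous tissue (edgeR adjusted p = 0.244), and 1.09 for ENO2, the neuronal enolase (edgeR adjusted p = 0.0598). ALDOC was at 32.3, 139, 105 and 72.2 CPM in 20-ARSF, 21-CTPS2, 22-LAPTM4B and 23-GOLGA8N, and at 18.7 to 65.7 CPM in the unprefixed libraries. ENO2 was at 26.4, 17.4, 50.04 and 48.3 CPM, against 6.42 to 25.2 CPM. For both genes 3 of 4 prefixed libraries exceeded every unprefixed library, but not the same 3. ENO1, the enolase found in most tissues, was at 1275 to 1982 CPM in the prefixed and 1063 to 1663 CPM in the unprefixed libraries, with a log2 fold change of 0.21 ± 0.10 (SE). PFKM, the muscle phosphofructokinase, was the other enzyme with a negative value, -0.86 ± 0.39 (SE, edgeR adjusted p = 0.395). It was at 3.99 CPM in 21-CTPS2 and 4.92 CPM in 22-LAPTM4B, below the lowest unprefixed level of 8.34 CPM, and at 13.4 and 15.6 CPM in 20-ARSF and 23-GOLGA8N. HK2 was at 11.3 to 21.1 CPM in the prefixed and 2.41 to 26.0 CPM in the unprefixed libraries, so its ranges overlapped.

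Of the 7 transporters and regulators, 1 was called, and the median log2 fold change was 0.68. SLC2A1 (ENSG00000117394, GRCh38 chr1:42925375-42959176), which encodes the basal glucose transporter GLUT1, was at 103 CPM in 20-ARSF, 102 in 21-CTPS2, 101 in 22-LAPTM4B and 109 in 23-GOLGA8N. Its unprefixed levels were 44.6 at the lowest, 61.8 at the median and 85.5 at the highest, the last in Neg. All 4 prefixed libraries stood above all 12 unprefixed ones, and the log2 fold change was 0.72 ± 0.16 (SE, edgeR adjusted p = 0.0076). SLC2A1 and BNIP3L were the only 2 of the 36 genes whose classes did not overlap in this way, against 0.391% of all genes tested.

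SLC2A3, which encodes the high-affinity glucose transporter GLUT3, was at 90.5 CPM in 20-ARSF, against 162, 156 and 154 CPM in 21-CTPS2, 22-LAPTM4B and 23-GOLGA8N. Its unprefixed levels were 46.7, 82.8 and 160 CPM at the lowest, median and highest, and Neg, the highest, was inside the prefixed range. The log2 fold change of 0.68 ± 0.20 (SE) did not pass (edgeR adjusted p = 0.12). PDK1, the kinase that holds pyruvate out of the mitochondrial dehydrogenase, was at 7.83 CPM in 20-ARSF, 20.0 in 21-CTPS2, 46.0 in 22-LAPTM4B and 20.2 in 23-GOLGA8N, with 2.86 to 23.6 CPM in the unprefixed libraries (log2 fold change 1.28 ± 0.37 (SE), edgeR adjusted p = 0.107). Only 22-LAPTM4B was above the unprefixed range. PFKFB4, which makes an activator of phosphofructokinase, had a log2 fold change of 1.04 ± 0.45 (SE, edgeR adjusted p = 0.391), and PFKFB3, its relative, one of 0.26 ± 0.42. Neither lactate transporter passed. SLC16A3 was at 5.87 to 11.04 CPM in the prefixed and 2.74 to 14.4 CPM in the unprefixed libraries, and SLC16A1 at 35.9 to 46.8 and 27.0 to 75.4 CPM, with a log2 fold change of -0.02.

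The hypoxia targets had the largest median log2 fold change of the role groups. All 11 tested had positive log2 fold changes, with a median of 1.05, and 2 were called. NDRG1 (ENSG00000104419), a stress-responsive gene long used as a hypoxia marker, was at 52.8 CPM in 20-ARSF, 84.2 in 21-CTPS2, 156 in 22-LAPTM4B and 93.3 in 23-GOLGA8N. The unprefixed libraries gave 6.98, 27.4 and 53.1 CPM as the lowest, median and highest. The ranges met only where 20-ARSF fell just short of GOLGA8N 2. The log2 fold change was 1.90 ± 0.40 (SE, edgeR adjusted p = 0.0438), and the call was lost in 6 of 13 alternatives, without GFP among them. NDRG1 also varied most over the 16 libraries other than GFP of the genes with a median of at least 10 CPM, with a SD of 1.25 in log2 (CPM + 1).

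BNIP3L and BNIP3 encode related receptors that deliver mitochondria to autophagy, a step that erythroid cells also use to lose their mitochondria. BNIP3L (ENSG00000104765) was at 58.4 CPM in 20-ARSF, 59.5 in 21-CTPS2, 73.2 in 22-LAPTM4B and 74.5 in 23-GOLGA8N. Every prefixed library stood above the highest unprefixed level of 58.2 CPM, in GFP, with a lowest and median of 16.3 and 39.8 CPM (log2 fold change 0.88 ± 0.21 (SE), edgeR adjusted p = 0.025). BNIP3 was at 47.1, 76.6, 85.0 and 64.4 CPM in the same order, with 11.4, 27.9 and 60.0 CPM as the lowest, median and highest unprefixed levels. Its log2 fold change of 1.19 ± 0.29 (SE) missed the threshold (edgeR adjusted p = 0.061). Of the reads in BNIP3 and its 39 annotated pseudogenes, 8.14% were in the pseudogenes. BNIP3 was called in 8 of 13 alternatives, among them DESeq2, limma-voom, no filter and the addition of those pseudogene reads. The next highest such share was 0.768%, for PGAM1.

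DDIT4, an inhibitor of mTORC1 signalling that stress and glucocorticoids also raise, was at 94.4 CPM in 20-ARSF and at 259, 240 and 241 CPM in 21-CTPS2, 22-LAPTM4B and 23-GOLGA8N. The unprefixed libraries ran from 39.1 to 139 CPM with a median of 90.4, so 20-ARSF was close to their median and the other 3 were above all of them. The log2 fold change was 1.22 ± 0.32 (SE, edgeR adjusted p = 0.135). VEGFA, the angiogenic growth factor, had a log2 fold change of 0.89 ± 0.28 (edgeR adjusted p = 0.149), and P4HA1, a collagen prolyl hydroxylase, 1.05 ± 0.34 (edgeR adjusted p = 0.174). ANKRD37, an ankyrin repeat gene, was at 7.81 to 19.2 CPM in the prefixed and 0 to 11.7 CPM in the unprefixed libraries. The oxygen sensors EGLN1 and EGLN3 had log2 fold changes of 0.13 ± 0.36 and 0.51 ± 0.33 (SE), and the histone demethylase KDM3A 0.56 ± 0.33.

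HIF1A (ENSG00000100644) did not separate the classes. It was at 9.05, 11.6, 8.10 and 5.52 CPM in 20-ARSF, 21-CTPS2, 22-LAPTM4B and 23-GOLGA8N, and its unprefixed levels were 3.45, 8.25 and 16.6 CPM at the lowest, median and highest. The log2 fold change was 0.04 ± 0.47 (SE, edgeR adjusted p = 0.99), an error too wide to tell a change like that of SLC2A1 from none.

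**Figure D2:**
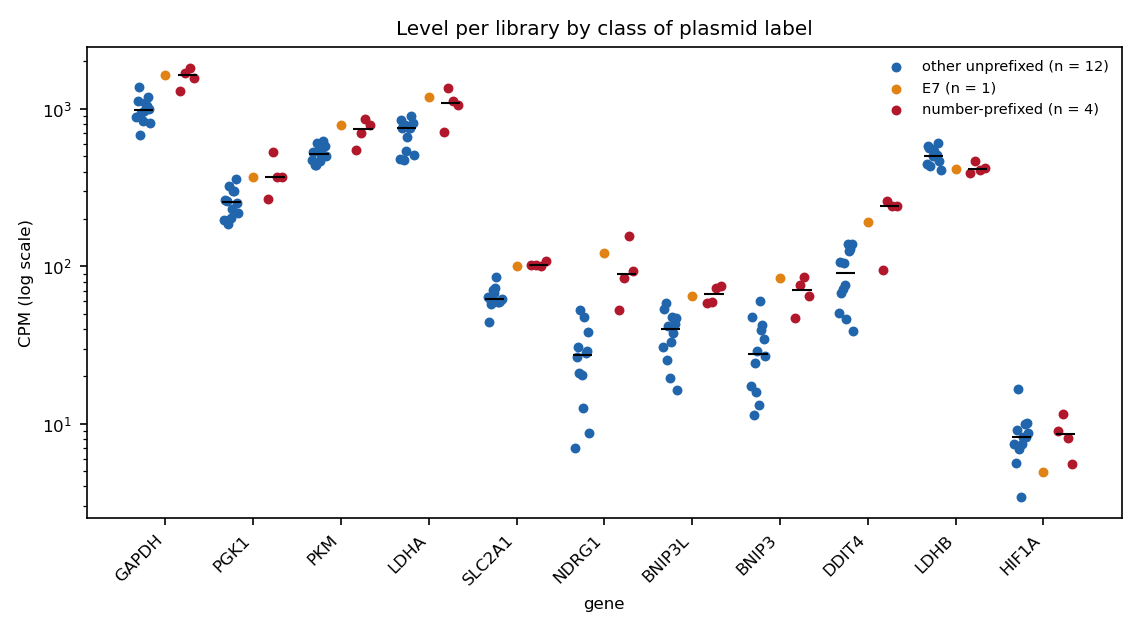
CPM on a log scale for 11 genes, 1 point per library, in the 12 unprefixed libraries, E7 and the 4 prefixed libraries; black lines are medians of groups with more than 1 library. The prefixed points of SLC2A1 (101 to 109 CPM) and BNIP3L (58.4 to 74.5 CPM) lie above every unprefixed point, and the prefixed DDIT4 point at 94.4 CPM is 20-ARSF.

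Other genes of the pathway had a smaller median fold change, a difference that was not tested. The members and these other genes were listed with earlier results of these data known. Of 76 other genes of glycolytic side branches, HIF regulation and the hypoxia response, 64 were tested and 1 was called, KDM4B, a histone demethylase induced by hypoxia. KDM4B was at 71.5 to 90.1 CPM in the prefixed libraries and at 32.9 to 79.9 CPM, with a median of 46.5, in the unprefixed ones (log2 fold change 0.76 ± 0.18 (SE), edgeR adjusted p = 0.022). The median log2 fold change of the 64 was 0.14, with 42 positive and 22 negative. By group it was 0.13 for 26 genes of side branches, 0.05 for 14 HIF regulators and 0.32 for 24 further hypoxia targets.

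Summed over members, the 17 enzymes took 6435 CPM in 20-ARSF, 9428 in 21-CTPS2, 8585 in 22-LAPTM4B and 8123 in 23-GOLGA8N, a mean of 8143 ± 1260 (SD, n = 4). The unprefixed libraries had a mean of 6376 ± 828 (SD, n = 12), from 4917 CPM in GOLGA8N 1 to 7479 CPM in TRPC5OS. The summed hypoxia targets were at 357, 642, 695 and 626 CPM in the same prefixed libraries, and at 145 CPM (UBE2V1) to 388 CPM (Neg) in the unprefixed ones, with means of 580 ± 152 (SD, n = 4) and 274 ± 80.1 (SD, n = 12). The ratio of means was thus 1.28 for the enzymes and 2.12 for the hypoxia targets. DDIT4 and NDRG1 weighed most in the prefixed hypoxia sum, with means of 208 and 96.6 CPM, against 91.2 and 27.0 CPM unprefixed. Among single hypoxia targets with reads, the ratio of means ran from 1.10 for EGLN1 to 3.58 for NDRG1. In both sums 20-ARSF alone lay within the unprefixed range. It was the lowest of the prefixed libraries for 23 of the 36 genes.

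**Figure D3:**
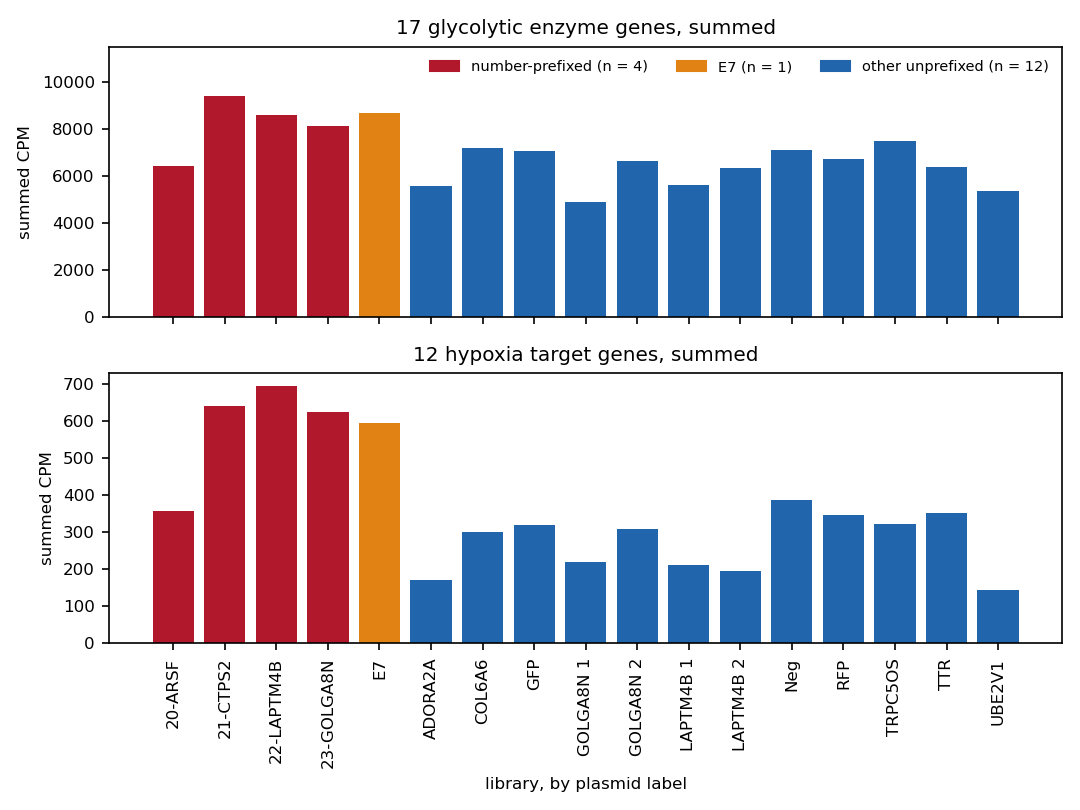
Summed CPM of the 17 enzymes (top) and the 12 hypoxia targets (bottom) in each library, 1 bar per library, with axes from 0. The hypoxia targets reach 626 to 695 CPM in 21-CTPS2, 22-LAPTM4B and 23-GOLGA8N and 596 CPM in E7, while no unprefixed library exceeds 388 CPM.

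The unprefixed libraries were not uniform. Their highest and lowest sums differed 1.52-fold for the enzymes and 2.68-fold for the hypoxia targets. Neg was above the 17-library median for 25 of the 36 genes, GOLGA8N 2 for 17, GOLGA8N 1 for 8, LAPTM4B 1 for 6, ADORA2A for 3 and UBE2V1 for 2. UBE2V1 had the lowest unprefixed level of BNIP3L, DDIT4, SLC2A3, VEGFA and P4HA1, and ADORA2A the lowest NDRG1. GOLGA8N 1 and GOLGA8N 2, which carry the same plasmid label, differed in summed enzymes (4917 and 6655 CPM) and hypoxia targets (220 and 310 CPM).

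Between the prefixed and unprefixed libraries, the ranges of ribosomal protein reads and of summed fibroblast markers did not overlap. Those of the epithelial and lymphoid markers did. Reads of ribosomal protein genes were 24.6% to 25.3% of the reads in genes in the prefixed libraries, above the 21.7% to 24.4% of the unprefixed ones, and 24.5% in E7. All 5 epithelial markers, which include keratins that K562 also expresses, had reads in some library. Their summed level was 1644 to 2018 CPM in the prefixed, 1768 CPM in E7 and 842 to 1805 CPM in the unprefixed libraries. Among them, CDH1 was at 0 in GFP and at most 3.91 CPM in any library (TRPC5OS). The 8 fibroblast markers summed to 21.2 to 38.1 CPM in the prefixed, 50.3 CPM in E7 and 40.0 to 64.3 CPM in the unprefixed libraries, with LUM and PDGFRB at 0 throughout. Most of this sum was COL1A2, whose own ranges overlapped. COL1A2 was at 20.7 to 35.2 CPM in the prefixed, 46.6 CPM in E7 and 32.7 to 62.6 CPM in the unprefixed libraries. The 8 lymphoid markers summed to 41.4 to 93.1, 80.2 and 33.9 to 119 CPM. Their part in the differences was not tested.

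GOLGA8N and LAPTM4B were the labels present with and without a prefix. Setting 22-LAPTM4B and 23-GOLGA8N against LAPTM4B 1, LAPTM4B 2, GOLGA8N 1 and GOLGA8N 2, with the labelled gene as a term, called 7 of 35 tested genes, against 0.617% of 11829 genes. The 7 were GAPDH, DDIT4, SLC2A3, BNIP3, LDHA, PKM and BNIP3L, of which 4 were also called in the main comparison. All 7 were higher in the prefixed libraries. DDIT4 was at 240 and 241 CPM in 22-LAPTM4B and 23-GOLGA8N, against 76.2, 46.4, 72.2 and 105 CPM in LAPTM4B 1, LAPTM4B 2, GOLGA8N 1 and GOLGA8N 2 (log2 fold change 1.74 ± 0.23 (SE), edgeR adjusted p = 0.00106). BNIP3 was at 85.0 and 64.4 CPM, against 28.9, 13.1, 24.2 and 15.9 CPM in the same order (log2 fold change 1.87 ± 0.33 (SE), edgeR adjusted p = 0.013). In both genes the 2 groups did not overlap, but both were among the genes that this fit called. The share of all genes without overlap between these libraries was not counted.

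E7 was compared with the 12 unprefixed libraries in the same fit. With 1 library there is no spread within E7, which is assumed to vary like the other groups. None of the 36 tested genes was called by edgeR, where 0.0356% of all genes were. At an unadjusted p under 0.05 there were 13, all higher in E7, beside 549 of all 16863 genes tested, of which 266 were higher. For E7, limma-voom called more than edgeR or DESeq2 did, both of these genes and of all genes tested. The median log2 fold change was 0.67 over the 36 genes and -0.16 over all genes tested. E7 was above all 12 unprefixed libraries for 18 of the 36, against 5.76% of all genes tested, and within the prefixed range for 28.

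GAPDH had the lowest p in E7, at 1644 CPM against at most 1385 CPM in the unprefixed libraries (log2 fold change 0.78 ± 0.18 (SE), edgeR adjusted p = 0.147). It was called by limma-voom, without the filter on low counts and without GFP. PDK1 was at 37.1 CPM, above the highest unprefixed 23.6 CPM (log2 fold change 1.94 ± 0.58), and SLC2A3 at 187 CPM, above 160 CPM (1.12 ± 0.33). PKM was at 790 CPM, above 629 CPM (log2 fold change 0.64 ± 0.20). The edgeR adjusted p of these 3 was 0.588, 0.64 and 0.678. HIF1A was at 4.98 CPM in E7, above 1 of the 12 unprefixed libraries (log2 fold change -0.72 ± 0.91). The summed enzymes were at 8673 CPM and the summed hypoxia targets at 596 CPM, 1.36 and 2.18 times the unprefixed means. Of the 64 other pathway genes, 0 were called by edgeR and 3 had an unadjusted p under 0.05, a share near that of all genes. These were KDM4B (86.7 CPM, log2 fold change 0.85), the fucosyltransferase gene FUT11 (35.1 CPM, 1.21) and BPGM, which makes the red cell metabolite 2,3-bisphosphoglycerate (1.24 CPM, -2.64).

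**Figure D4:**
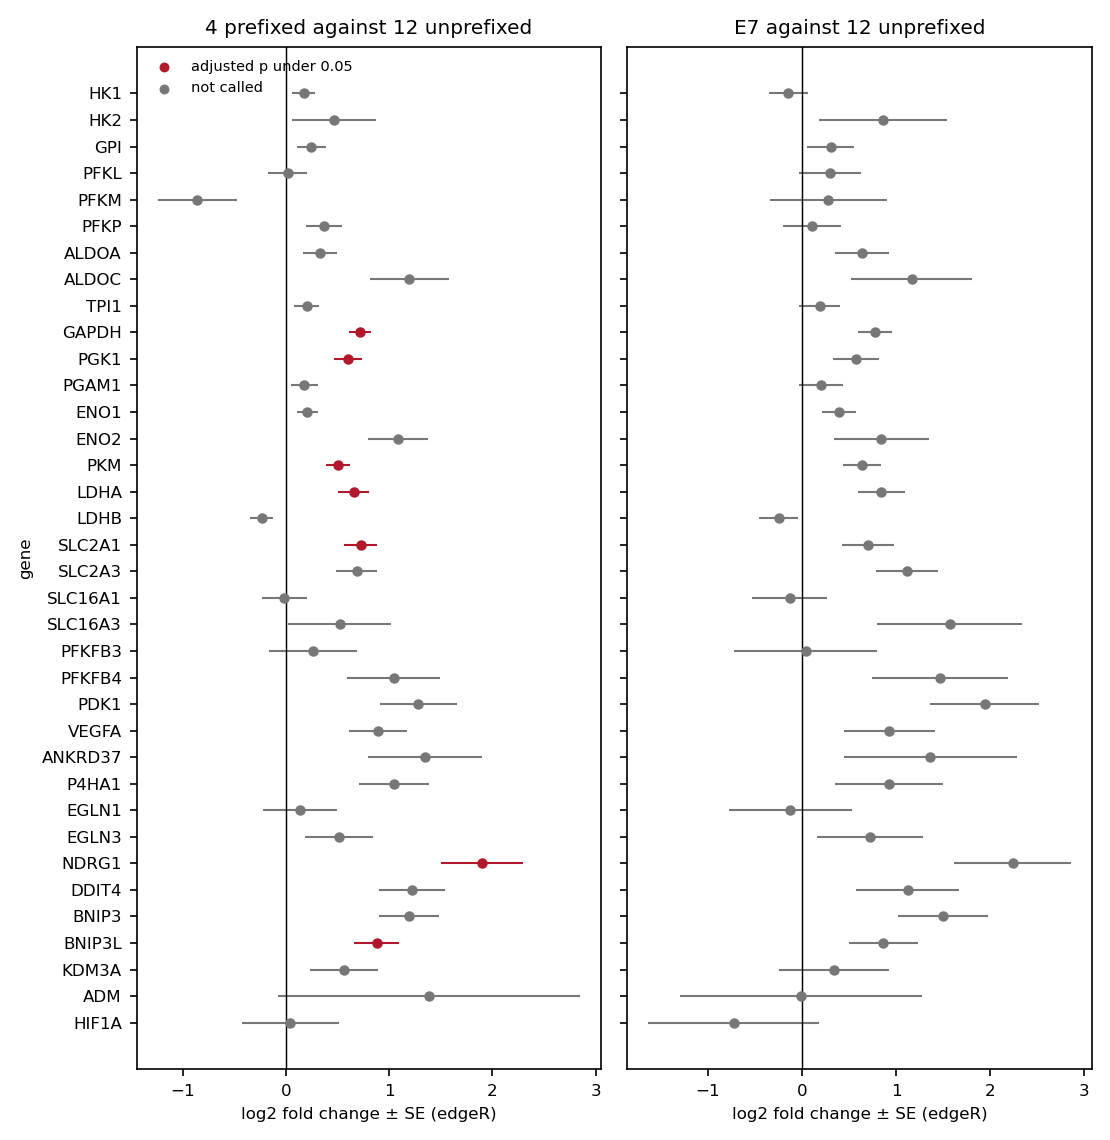
Log2 fold change with its SE from edgeR for 36 genes in the prefixed (left) and E7 (right) comparisons, both against the same 12 unprefixed libraries; red marks an adjusted p under 0.05. The 7 red genes on the left run from 0.51 (PKM) to 1.90 (NDRG1), and none is red on the right.

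Both comparisons use the same 12 unprefixed libraries, so their values are not independent. Side by side, the prefixed and E7 log2 fold changes were 0.72 and 0.78 for GAPDH, 0.65 and 0.85 for LDHA, 0.72 and 0.70 for SLC2A1, 0.60 and 0.58 for PGK1, 0.51 and 0.64 for PKM, 1.90 and 2.24 for NDRG1, and 0.88 and 0.87 for BNIP3L, the 7 genes called in the first comparison. Other members had unlike values, such as 0.04 and -0.72 for HIF1A and -0.86 and 0.28 for PFKM.

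The title of the series concerns GOLGA8 genes and oligonucleotide uptake, and the third set of comparisons was by plasmid gene. The GOLGA8N arm (GOLGA8N 1, GOLGA8N 2 and 23-GOLGA8N) and the LAPTM4B arm (LAPTM4B 1, LAPTM4B 2 and 22-LAPTM4B) were each set against a reference arm of Neg, GFP and RFP, labels without a human gene, and against each other. None of the 35 genes tested was called in any of the 3, by edgeR, DESeq2 or limma-voom, and 0 had an unadjusted p under 0.05 in edgeR. Each arm holds 1 prefixed and 2 unprefixed libraries, and the reference holds none with a prefix. With unprefixed labels only, again 0 were called, and those at an unadjusted p under 0.05 were 3 in the GOLGA8N arm (GAPDH, SLC2A3 and P4HA1) and 4 in the LAPTM4B arm (ALDOA, ALDOC, P4HA1 and DDIT4), all lower than the reference, beside 751 and 475 of all 12764 genes tested. Over all 11916 genes tested, the shares called were 0.0168% for GOLGA8N against reference, 0% for LAPTM4B against reference and 0.00839% for GOLGA8N against LAPTM4B. The median log2 fold changes of the 35 genes were 0.12, 0.12 and -0.0012 respectively, against 0.01, 0.02 and -0.01 over all genes. The first 2 comparisons share their reference libraries.

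PKM had the lowest p against the reference in both arms. It was at 442 CPM in GOLGA8N 1, 605 CPM in GOLGA8N 2 and 789 CPM in 23-GOLGA8N, at 540 CPM in LAPTM4B 1, 464 CPM in LAPTM4B 2 and 868 CPM in 22-LAPTM4B, and at 510, 442 and 520 CPM in Neg, GFP and RFP. In each arm the prefixed library was the highest and the ranges overlapped. The log2 fold changes were 0.46 ± 0.23 (SE, edgeR adjusted p = 0.897) and 0.49 ± 0.23 (edgeR adjusted p = 0.9999).

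SLC2A1 had a log2 fold change of 0.33 ± 0.28 (SE) in the GOLGA8N arm, where its 3 libraries were at 57.4, 71.1 and 109 CPM, the last being 23-GOLGA8N. The reference libraries were at 85.5, 61.8 and 59.2 CPM in Neg, GFP and RFP. ANKRD37 (1.05 ± 1.02) and SLC16A3 (0.68 ± 0.74) followed, and the value for ANKRD37 changed sign without 23-GOLGA8N. In the LAPTM4B arm the next were PFKM (-0.98 ± 0.54), P4HA1 (-1.07 ± 0.63) and PFKP, the platelet phosphofructokinase (0.36 ± 0.27).

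Between the 2 arms PFKM had the lowest p, with 25.6 CPM in GOLGA8N 1, 21.0 in GOLGA8N 2 and 15.6 in 23-GOLGA8N. It was at 8.34 CPM in LAPTM4B 1, 19.2 in LAPTM4B 2 and 4.92 in 22-LAPTM4B (log2 fold change 0.97 ± 0.53 (SE), edgeR adjusted p = 0.99996). The ranges overlapped. P4HA1 (0.69 ± 0.62), PFKP (-0.29 ± 0.26) and HK1, the constitutive hexokinase (-0.15 ± 0.16), followed. The 3 libraries of the GOLGA8N arm summed to 220, 310 and 626 CPM of hypoxia targets, the LAPTM4B arm to 213, 197 and 695 CPM, and the reference to 388, 319 and 346 CPM in Neg, GFP and RFP. In both arms the unprefixed libraries were below the 3 reference libraries and the prefixed library was above them.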

How the data were processed

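Per the file headers, the deposited files are Salmon output for 228297 transcripts, with an estimated count and a TPM value that the authors' quantifier gave each transcript. The deposited TPM values were not used in tests. Libraries were made from total RNA with a 3′ tag kit whose oligo-dT primers held 12 bp molecular identifiers, per the labels' protocols. The submitters' processing notes name Salmon 0.7.2, STAR under the same version number, UMI-tools and featureCounts, and GRCh38 (hg38) as the build. Collapsing of reads by molecular identifier is not stated, so floors of 3 reads cover counting error only. Strand use in counting is not given in the sources used, so genes that overlap on opposite strands are uncertain.

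The estimated counts of 205336 transcripts that matched GENCODE 29 (GRCh38), ignoring version suffixes, were added up by gene. These held 96.4% to 96.7% of the reads, and the rest stayed out of library sizes. Gene sums were rounded for tests. The 37 members and all lists were chosen with earlier results of these data known. All 136 pairs of libraries differed by more than counting noise (chi-square at least 7.20 per degree of freedom).

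The test was that of edgeR 4.0.16 under R 4.3.3 (TMM, filterByExpr, robust quasi-likelihood test, Benjamini-Hochberg adjustment over all genes tested, threshold 0.05). The prefixed and E7 comparisons used all 17 libraries in 1 fit, and the arms the 9 libraries of the 3 arms. SE is the size of the log2 fold change divided by the square root of F. Alternatives were DESeq2 1.42.0, limma-voom (limma 3.58.1), RLE size factors, no filter, unmatched transcripts kept, pseudogene reads added, and other sets of libraries. Each prefixed library was left out in turn in the prefixed comparison, and each library of the arms compared in the arm comparisons. Of the unprefixed libraries, GFP alone was left out singly in the prefixed and E7 comparisons. The fits were tested on simulated data.

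Genes named were every called member, otherwise the 4 with the lowest p in a comparison, HIF1A, the most and least abundant enzyme and hypoxia target, and the member with the largest SD. Of the other pathway genes it named those that passed, or 2 with the lowest p. Further members were named, with their values seen, to complete their role groups.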

Additional observations from a re-analysis of the deposited data

Results flagged for a closer look

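Among the 4 prefixed libraries, 3 of 40 levels (members and their sums) had 20-ARSF far from the other 3 by Dixon's test of the gap to the nearest neighbour over the whole range at 95%. Chance flags about 1 in 20. SLC2A3 was at 90.5 CPM in 20-ARSF, where the others were at 154 to 162 CPM. DDIT4 was at 94.4 CPM in 20-ARSF, where the others were at 240 to 259 CPM. The summed transporters and regulators were at 292 CPM in 20-ARSF, where the others were at 379 to 390 CPM; this sum contains SLC2A3, so the flags are not independent. The library 20-ARSF was also the deepest, at 4236396 estimated reads.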

How the results depend on the processing

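In the prefixed and E7 comparisons the summed enzymes and hypoxia targets kept their direction, and moved by less than 1 SD, under every alternative run for them; sums were not tested in the arms. Members called in the prefixed comparison, 7 in the main analysis, were 11 with DESeq2, 14 without the filter and 1 to 11 with each prefixed library left out. In E7, 0 in the main analysis became 5 with limma-voom, 4 without the filter and 1 without GFP. In the 3 arm comparisons the count stayed at 0 in every alternative run.

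All genes called in the prefixed comparison (103) were 230 with DESeq2, 554 without the filter, 160 without GFP and 46 to 127 with each prefixed library left out. In E7 (6) they were 20 with DESeq2, 52 with limma-voom, 26 without the filter, 3 with unmatched transcripts kept and 12 without the prefixed libraries. For GOLGA8N against reference (2) they were 1 with RLE, 15 with DESeq2, 0 with limma-voom, 42 without the filter, 1 without GFP, 7 with unprefixed labels only, 18 with all 17 libraries and 1 to 5 with 1 library left out. For LAPTM4B against reference (0; 470 at an unadjusted p under 0.05) they were 1 with DESeq2, 25 without the filter, 2 with unprefixed labels only, 4 with all 17 libraries and 0 to 1 with 1 library left out. For GOLGA8N against LAPTM4B (1) they were 3 with DESeq2, 0 with limma-voom, 9 without the filter, 3 with unmatched transcripts kept, 2 with unprefixed labels only, 4 with all 17 libraries and 1 to 3 with 1 library left out. The causes were not tested.

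With the libraries titled 1 and 2 alone, the same comparison called 2 genes with a replicate block and 2 without, and 0 members either way. The deviations of libraries with the same number had a correlation of 0.121, and the labels give them only a shared number.

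Of single members, ANKRD37 in the GOLGA8N arm turned from 1.05 to -0.37 without 23-GOLGA8N (range -0.37 to 1.51 with 1 library left out) and to -0.38 with unprefixed labels only, and P4HA1 between the arms turned from 0.69 to -0.54 without 23-GOLGA8N (range -0.54 to 1.32). In the prefixed comparison, 24 of 91 alternative values of the 7 called genes lost the call, with none reversed. Depth limits GFP most.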
